A study of Mus musculus with 9 samples.

Results

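The renin angiotensin system genes are 6 genes of the mouse submandibular gland (SMG): *Agt*, *Ren1*, *Ace*, *Enpep*, *Agtr1a* and *Atp6ap2*. They were chosen by gene symbol from the 17562 rows of the authors' normalized expression table, and all 6 were found there and, by Ensembl identifier, among the 48733 rows of the raw count table. The system makes the peptide angiotensin II: renin (*Ren1*) cuts angiotensinogen (*Agt*) to angiotensin I, and angiotensin-converting enzyme (*Ace*) trims this to angiotensin II. Aminopeptidase A (*Enpep*) shortens angiotensin II further, the type 1a receptor (*Agtr1a*) binds it, and the prorenin receptor (*Atp6ap2*) binds prorenin and is also an accessory subunit of the vacuolar proton pump. The male mouse SMG has long been known as a source of renin outside the kidney. In strains that carry *Ren2* the gland makes large amounts of it in the granular convoluted ducts, and C57BL/6 mice carry *Ren1* alone.

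RNA was sequenced from the SMGs of 9 adult male mice, 4 wildtype (WT) and 5 *Hs3st3a1;Hs3st3b1* double knockout (DKO), with 1 unstranded Nextera XT library per mouse. All mice were on a C57BL/6 background and the WT mice were littermates from the same breeding. DKO mice carry a frameshift deletion made with a zinc finger nuclease in exon 1 of *Hs3st3a1*. It is on the same allele as a knockout of *Hs3st3b1* that holds a LacZ cassette. Every cell therefore lacks the enzymes of these genes, which add 3-*O*-sulfate groups of the Hs3st3 type to heparan sulfate. In the study, a predicted product of this type was not detected in DKO glands, and another was not significantly decreased. A 3-*O*-sulfated structure proposed to be made by the related enzyme Hs3st1 was significantly decreased. The study kept 3 founder lines with different deletions, and the line and age of each sequenced mouse are not given in the sources used here.

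Total counts ranged from 20653492 to 37870517 in WT and from 17053746 to 34683690 in DKO. The deleted genes matched the labels: *Hs3st3a1* was at 7, 3, 14 and 9 counts in WT and at 0 in each DKO library, and *Hs3st3b1* had 67 to 216 counts in WT and 7 to 45 in DKO. The defining markers of SMG acini (*Aqp5*, *Pip*, *Lpo*) and granular ducts (*Egf*, *Klk1b22*) were present in all libraries. DKO_1 stood apart for parotid gland markers, with 8070 CPM summed over 4 genes. The sum was 24.4 to 48.4 CPM in WT and 57.4 to 92.3 CPM in the other 4 DKO libraries, above all WT libraries. The genes did not move together in those 4 DKO libraries. *Bpifa2* was above all WT libraries (43.3 to 79.1 CPM against 4.42 to 26.5 CPM). *Amy1* was below all WT libraries (7.10 to 14.1 CPM against 17.3 to 25.5 CPM). Levels are given as CPM, the share of a library's reads that fell on a gene, after scaling of the library totals by TMM factors. The genotypes were tested with edgeR's quasi-likelihood fit, and p was adjusted by Benjamini-Hochberg over 13842 genes with enough counts. Log2 fold changes are DKO over WT, with their standard error (SE).

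The members fell into a high and a low set. Genes differ in length, so levels were compared between genes as CPM per kilobase of merged exons. In WT, *Ren1* had the highest mean with 53.1 ± 25.6 (SD, n = 4), followed by *Agt* with 42.1 ± 14.1 and *Atp6ap2* with 28.1 ± 0.977. The ranges of these 3 genes overlapped, since *Ren1* ran from 22.4 to 85.2, *Agt* from 28.9 to 61.9 and *Atp6ap2* from 27.3 to 29.1. The other 3 members were far lower, with *Ace* at 0.516 ± 0.143, *Enpep* at 0.294 ± 0.0898 and *Agtr1a* at 0.140 ± 0.0926 CPM per kilobase in WT. All *Ace* values in WT (0.412 to 0.723) were above all *Enpep* values (0.193 to 0.401), whereas *Enpep* and *Agtr1a* (0.0320 to 0.220) overlapped. Transcripts of the substrate and of renin were abundant in the gland, and those of the converting enzyme and the receptor were scarce.

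In DKO the first and second places changed hands. *Agt* led with 94.3 ± 29.4 CPM per kilobase (SD, n = 5), *Ren1* followed with 45.8 ± 32.8 and *Atp6ap2* with 31.0 ± 5.11, while *Ace* (0.469 ± 0.0746), *Enpep* (0.306 ± 0.0525) and *Agtr1a* (0.131 ± 0.0502) kept their order. The ratio of *Agt* to *Ren1* per length was 0.547, 1.84, 0.424 and 1.19 in WT 1 to 4 and 2.27, 2.91, 1.29, 3.19 and 2.56 in DKO 1 to 5. Libraries DKO_3 and WT_2 crossed in this ratio, and the other libraries of the groups did not. It is given as a description, without a test.

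**Figure D1:**
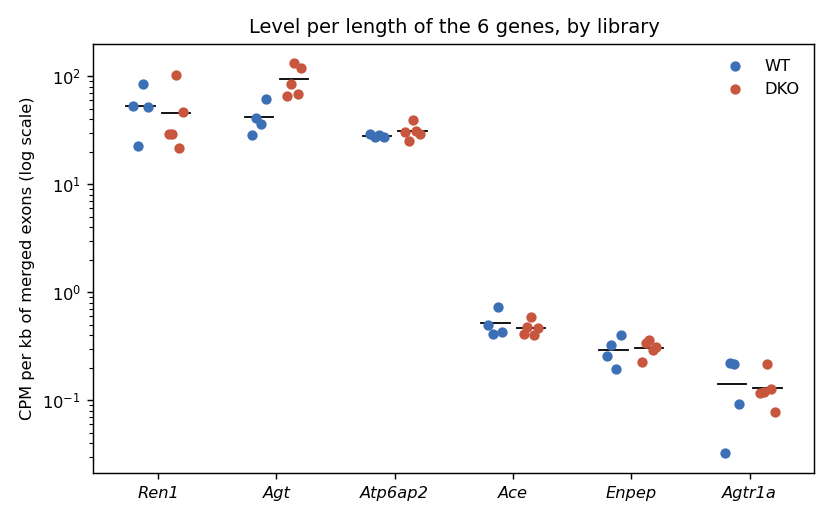
Level of the 6 genes in each library, as TMM-scaled CPM per kilobase of merged exons on a log axis. Each point is 1 library (WT blue, n = 4; DKO red, n = 5) and bars mark group means. *Ren1*, *Agt* and *Atp6ap2* lie between 21.7 and 132 in all 9 libraries, and *Ace*, *Enpep* and *Agtr1a* between 0.0320 and 0.723.

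The promoters of the 3 members with the highest levels are shown because the secreted substrate and enzyme differ there from the widely expressed *Atp6ap2*. Each run is the 100 bases before the transcription start annotated by RefSeq (GRCm38.p6), read 5′ to 3′ on the gene's strand. Capitals mark the letters TATAAA, a form of the TATA box. The windows are chr1:133350574-133350673 (plus strand) for *Ren1*, chr8:124569707-124569806 (minus strand) for *Agt* and chrX:12587659-12587758 (plus strand) for *Atp6ap2*.
Ren1: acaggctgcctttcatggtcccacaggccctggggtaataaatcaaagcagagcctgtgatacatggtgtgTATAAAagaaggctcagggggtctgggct
Agt: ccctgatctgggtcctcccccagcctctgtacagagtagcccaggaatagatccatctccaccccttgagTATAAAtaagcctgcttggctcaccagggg
Atp6ap2: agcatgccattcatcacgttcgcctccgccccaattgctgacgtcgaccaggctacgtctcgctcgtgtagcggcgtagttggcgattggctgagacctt
TATAAA begins 29 bases before the start in *Ren1* and 30 bases before it in *Agt*. On the gene's strand it was not found in the 250 bases before the annotated starts of *Atp6ap2*, *Enpep* or *Ace*, which has 2 entries. Of 32851 RefSeq promoters, 7.59% hold it in that window on the gene's strand and 12.4% on either strand. On the opposite strand its letters occur once each in *Enpep* and in 1 of the *Ace* promoters. A promoter was matched for 5 of the 6 members, and *Agtr1a* had no entry. A match describes the letters in the window and is not evidence of a binding site.

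*Agt* was the member whose level differed most between the genotypes. This gene (ENSMUSG00000031980, chromosome 8, 124556534 to 124569706, minus strand, GRCm38) encodes angiotensinogen, the secreted protein that renin cuts. WT 1 to 4 had 1225, 2045, 3092 and 2725 counts, or 54.7, 78.2, 68.3 and 117 CPM. DKO 1 to 5 had 4283, 3941, 5433, 3315 and 3087 counts, or 125, 162, 249, 131 and 224 CPM. Every DKO library was above every WT library, though the gap between the highest WT library (WT_4, 117 CPM) and the lowest DKO library (DKO_1, 125 CPM) was small.

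The means for *Agt* were 79.5 ± 26.7 CPM (SD, n = 4) for WT and 178 ± 55.6 CPM (SD, n = 5) for DKO, a 2.24-fold difference (log2 fold change 1.16, SE 0.26, 95% interval 0.60 to 1.73). Adjusted over all genes by Benjamini-Hochberg, edgeR's quasi-likelihood test gave an adjusted p of 0.0570 (unadjusted p = 0.000746 by edgeR), which missed the threshold of 0.05. DESeq2's Wald test, which the study's methods name, passed it (adjusted p = 0.000659 with Benjamini-Hochberg adjustment). In an exact two-sided permutation test over all 126 ways to divide the 9 libraries into 4 and 5, the difference in mean log2(CPM + 0.5) had p = 0.00794, the smallest value that this design can give. Leaving out DKO_4 brought the edgeR test under the threshold (log2 fold change 1.26, edgeR adjusted p = 0.0307), and in 27 alternative settings *Agt* was always higher in DKO, with adjusted p between 2.00e-05 and 0.221.

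No member passed the main test. By edgeR, 0 of the 5 members tested had an adjusted p under 0.05, against 0.629% of all genes tested, and 1 of 5 (*Agt*) had an unadjusted p under 0.05, against 14.5%. DESeq2 called 1 of 5 (*Agt*), against 4.45% of the genes to which it gave an adjusted p. *Agt* was also the member whose groups did not overlap. Of the 13842 genes tested, 345 (2.49%) had all DKO libraries above all WT libraries, and a further 486 had all DKO libraries below all WT libraries. The median log2 fold change was 0.06 over the 5 members tested and 0.01 over all genes tested.

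**Figure D2:**
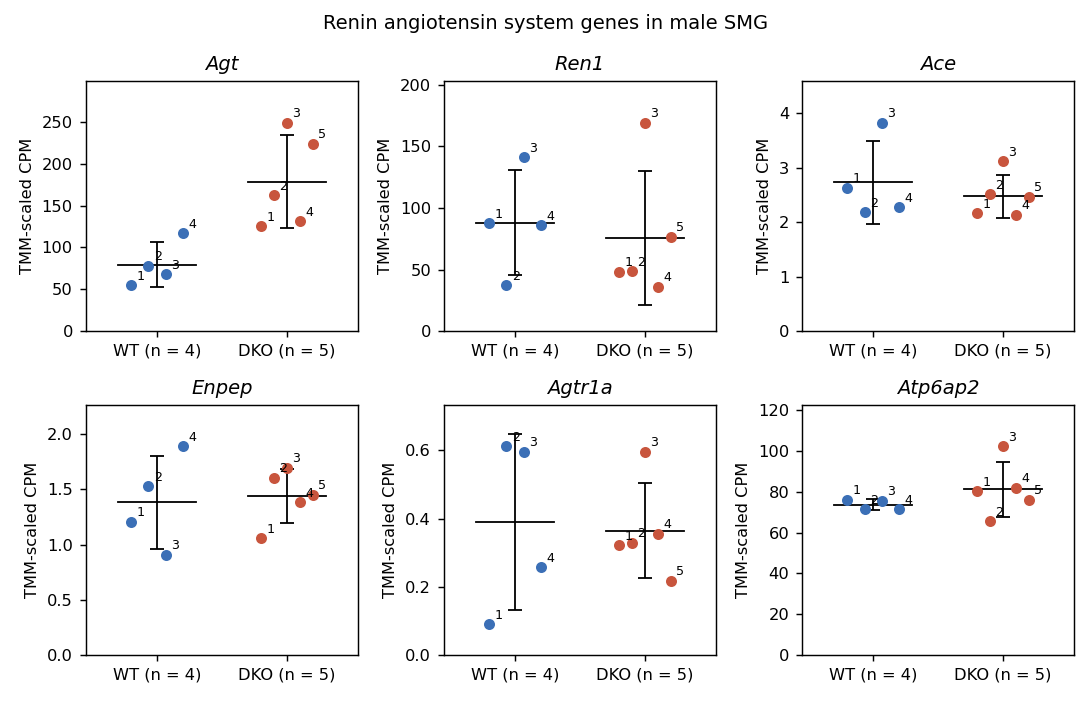
TMM-scaled CPM of each member in the 4 WT (blue) and 5 DKO (red) libraries, numbered by replicate, with the group mean (horizontal line) and SD (error bar). For *Agt* the DKO libraries (125 to 249 CPM) lie above the WT libraries (54.7 to 117 CPM), and for the other 5 genes the groups overlap.

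*Ren1* varied more between mice than between genotypes. The gene (ENSMUSG00000070645, chromosome 1, 133350510 to 133360325, plus strand; the RefSeq start used above lies inside this interval, at 133350674) encodes renin, the aspartyl protease that sets the rate of the pathway. WT 1 to 4 had 1963, 972, 6386 and 2010 counts, or 87.6, 37.2, 141 and 86.3 CPM. DKO 1 to 5 had 1653, 1186, 3693, 911 and 1057 counts, or 48.4, 48.8, 169, 36.0 and 76.7 CPM. DKO_3 was the highest library of all and WT_3 the next, DKO_4 and WT_2 were the lowest, and the groups overlapped over nearly their whole range.

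The *Ren1* means were 88.0 ± 42.5 CPM (SD, n = 4) for WT and 75.8 ± 54.3 CPM (SD, n = 5) for DKO, with a log2 fold change of -0.22 (SE 0.45, 95% interval -1.20 to 0.77, adjusted p = 0.885 by edgeR's quasi-likelihood test). The interval covers changes from 0.435-fold to 1.70-fold, so a change within it could not be detected with these libraries. The sign changed without WT_3, to a log2 fold change of 0.11, and the estimate was -0.75 without DKO_3, with the same sign. Within groups, *Ren1* had a pooled SD of 0.836 on the log2(CPM + 0.5) scale, and 98.5% of the genes tested had a smaller one. For comparison, this SD was 0.451 for *Agt*, 0.260 for *Enpep*, 0.248 for *Ace* and 0.177 for *Atp6ap2*, and its median over all genes tested was 0.241.

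*Ace*, which encodes the dipeptidyl carboxypeptidase that makes angiotensin II and is known from the surface of endothelial cells, was low in all mice. It lies on the plus strand of chromosome 11 from 105967945 to 105989964 (ENSMUSG00000020681). The counts were 59, 57, 173 and 53 in WT and 74, 61, 68, 54 and 34 in DKO, or 2.63, 2.18, 3.82 and 2.27 CPM in WT and 2.17, 2.51, 3.12, 2.13 and 2.47 CPM in DKO. WT_3 was highest and the groups overlapped. With means of 2.73 ± 0.756 CPM (SD, n = 4) for WT and 2.48 ± 0.394 CPM (SD, n = 5) for DKO, the log2 fold change was -0.15 (SE 0.21, 95% interval -0.62 to 0.32, adjusted p = 0.815 by edgeR's quasi-likelihood test), and it was 0.07 without WT_3.

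*Enpep* encodes aminopeptidase A, the membrane enzyme that removes the first residue of angiotensin II. Its locus is on chromosome 3, minus strand, from 129269175 to 129332720 (ENSMUSG00000028024). WT 1 to 4 had 27, 40, 41 and 44 counts (1.21, 1.53, 0.906 and 1.89 CPM), and DKO 1 to 5 had 36, 39, 37, 35 and 20 counts (1.05, 1.60, 1.70, 1.38 and 1.45 CPM). All DKO libraries lay within the WT range. The log2 fold change was 0.06 (SE 0.26, 95% interval -0.51 to 0.63, adjusted p = 0.946 by edgeR's quasi-likelihood test), and it was -0.11 without WT_3 and near 0 without DKO_3. Without TMM factors it was -0.23, where the median of all genes was -0.28.

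*Agtr1a*, the G protein-coupled receptor through which angiotensin II acts on vessels, was the scarcest member. It lies on the plus strand of chromosome 13 from 30336441 to 30382867 (ENSMUSG00000049115). Its 2, 16, 27 and 6 counts in WT and 11, 8, 13, 9 and 3 counts in DKO were too few for the filter, and the fit over all genes did not test it. At 0.0893, 0.612, 0.597 and 0.258 CPM in WT and 0.322, 0.329, 0.596, 0.356 and 0.218 CPM in DKO, every DKO library lay within the WT range. The mean log2(CPM + 0.5) differed by -0.01 (exact two-sided permutation test, p = 0.960), and at this depth a moderate difference was not detectable.

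*Atp6ap2* was the steadiest of the 5 members tested. It lies on the plus strand of the X chromosome from 12587801 to 12617049 (ENSMUSG00000031007), and the RefSeq start used above lies upstream of that interval. WT libraries had 76.2, 71.5, 75.6 and 71.4 CPM from 1706, 1870, 3421 and 1664 counts. DKO libraries had 80.3, 65.6, 102, 82.0 and 76.0 CPM from 2741, 1594, 2231, 2074 and 1048 counts. DKO_3 was the highest library and DKO_2 the lowest, with the WT libraries close together between them. The log2 fold change was 0.14 (SE 0.12, 95% interval -0.13 to 0.41, adjusted p = 0.671 by edgeR's quasi-likelihood test), and it changed sign, to -0.16, when libraries were scaled to their totals without TMM factors, a scaling that moved the median of all genes by -0.293.

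In RNA from a whole gland, fewer cells of a type and less RNA per cell cannot be told apart. Marker lists for the main cell types were therefore read beside the members. Of the 6 granular duct markers, among them *Egf*, *Klk1b5*, *Klk1b9*, *Klk1b22* and *Klk1b26*, 6 of 6 were lower in DKO. The median of their log2 fold changes was -1.92. By test, 0 of 6 were called by edgeR (adjusted p 0.0570 to 0.117), 6 of 6 had an unadjusted p under 0.05 and 6 of 6 were called by DESeq2. Their summed level was 38525 to 92093 CPM in WT and 5454 to 30684 CPM in DKO. Of the 6 acinar markers (*Aqp5*, *Bhlha15*, *Lpo*, *Car6*, *Pip*, *Mucl2*), 6 of 6 were higher in DKO, with log2 fold changes of 0.38 to 1.03, 0 called by edgeR (adjusted p 0.142 to 0.482), 4 at an unadjusted p under 0.05 and 3 called by DESeq2. Their summed level was 197794 to 294615 CPM in WT and 307587 to 546937 CPM in DKO. Over all genes tested, edgeR called 0.629%, and 14.5% had an unadjusted edgeR p under 0.05. DESeq2 called 4.45% of the genes to which it gave an adjusted p.

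The study counts *Agt* among acinar markers and names it as increased in female DKO glands. For male DKO glands it names other acinar genes, *Lpo* and *Mucl2* among them. Its significant qPCR results list *Agt* for female DKO and not for male DKO. The study's full RNAseq list of genes that differed in males is not quoted here. Across the male libraries used here, the level of *Agt* went with the mean log2 level of the 6 acinar markers, given relative to the WT mean. WT_1, the library with the least acinar marker signal (-0.37), had the lowest *Agt* level of 54.7 CPM. DKO_5 (1.04) and DKO_3 (1.01), which had the most, had the highest *Agt* levels of 224 and 249 CPM. WT_4 (0.24, 117 CPM) and DKO_1 (0.31, 125 CPM) were close in both measures, but WT_2, with nearly the same acinar marker signal (0.23), had 78.2 CPM of *Agt*.

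The acinar markers were on average 0.70 higher in DKO on the log2 scale, and *Agt* was 1.16 higher. Single markers ranged from 0.41 (*Bhlha15*) to 0.99 (*Car6*) and 1.02 (*Pip*), so the comparison depends on which markers are listed. The difference between *Agt* and the acinar list was -5.83 ± 0.251 (SD, n = 4) for WT and -5.37 ± 0.148 (SD, n = 5) for DKO, a gain of 0.46 over the list. In an exact two-sided permutation test this had p = 0.0159, or 0.0794 after Benjamini-Hochberg adjustment over 5 such tests, and did not pass the threshold. In 4 of 5 DKO libraries it was above all WT libraries. The part of the acinar cell share in the *Agt* difference was not tested beyond this.

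**Figure D3:**
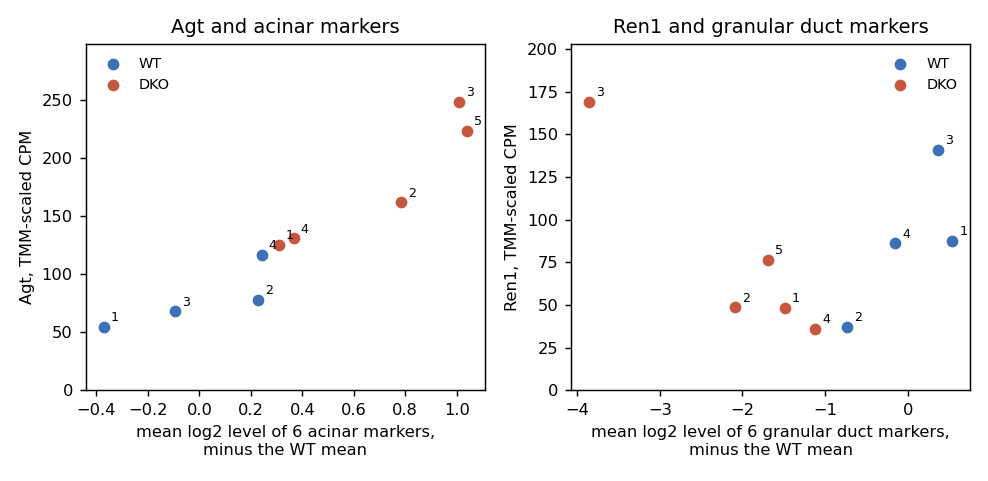
*Agt* (left) and *Ren1* (right) in TMM-scaled CPM against the mean log2 level of 6 acinar or 6 granular duct markers, relative to the WT mean. Each point is 1 library, numbered by replicate (WT blue, DKO red). *Agt* is lowest in WT_1 (54.7 CPM at -0.37) and highest in DKO_3 (249 CPM at 1.01), and *Ren1* is highest in DKO_3 (169 CPM), the library with the least granular duct marker signal (-3.86).

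Within WT, *Ren1* was lowest in the library with the least granular duct marker signal. WT 1 to 4 were at 0.54, -0.74, 0.36 and -0.16 relative to the WT mean of the list, and at 87.6, 37.2, 141 and 86.3 CPM of *Ren1*. This did not extend to DKO. The list was on average 2.05 lower in DKO on the log2 scale, and *Ren1* was 0.30 lower. DKO_3 had the lowest granular duct level of all libraries (-3.86 relative to the WT mean) together with the highest *Ren1* level, 169 CPM. The difference between *Ren1* and the list was -6.34 ± 0.435 (SD, n = 4) for WT and -4.59 ± 1.89 (SD, n = 5) for DKO, and 4 of 5 DKO libraries were above all WT libraries. This gain of 1.75 gave p = 0.0635 in an exact two-sided permutation test (adjusted p = 0.159 over 5 tests), and it was 0.95 without DKO_3.

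The vascular members were read beside vascular markers. Of the 5 endothelial markers (*Pecam1*, *Cdh5*, *Kdr*, *Tie1*, *Emcn*), 0 were called by edgeR or DESeq2 and 1 had an unadjusted p under 0.05, and their sum was 20.5 to 30.3 CPM in WT and 28.8 to 34.0 CPM in DKO. *Ace* relative to this list was -0.63 ± 0.442 (SD, n = 4) for WT and -0.96 ± 0.141 (SD, n = 5) for DKO, a difference of -0.33 (exact permutation p = 0.214, adjusted p = 0.357). Of the 6 mural cell markers (*Pdgfrb*, *Rgs5*, *Notch3*, *Kcnj8*, *Higd1b*, *Abcc9*), 0 were called by either tool and 0 had an unadjusted p under 0.05, and their sum was 24.8 to 28.8 CPM in WT and 21.1 to 33.2 CPM in DKO. Relative to the mural list, *Agtr1a* differed by -0.10 (exact permutation p = 0.563, adjusted p = 0.704) and *Enpep* by -0.03 (exact permutation p = 1.0, adjusted p = 1.0). None of the 5 comparisons passed at an adjusted p under 0.05, and 1, that of *Agt*, had an unadjusted p under 0.05.

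**Figure D4:**
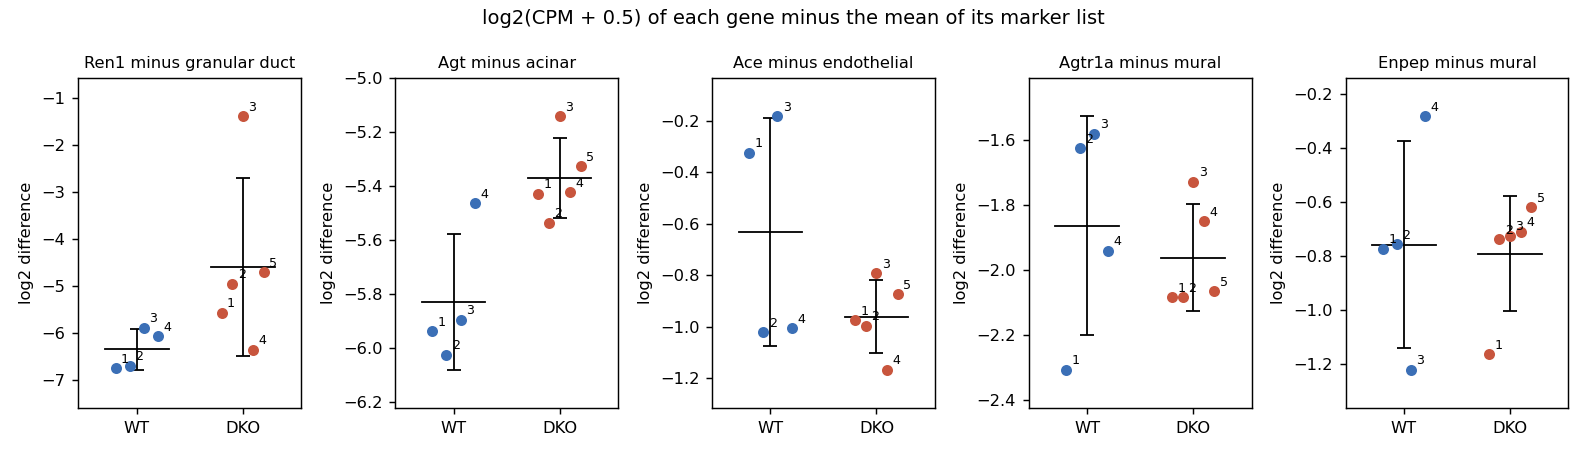
Difference between log2(CPM + 0.5) of each gene and the mean of its marker list, by library (WT blue, DKO red, numbered by replicate), with group means and SD. *Agt* minus the acinar list is higher in DKO on average (-5.37 against -5.83), *Ren1* minus the granular duct list is higher but spread over 1.89 (SD) in DKO, and the 3 comparisons with vascular marker lists overlap.

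Adipocytes are a known source of *Agt*, and mast cells hold chymases that can also make angiotensin II. The 5 adipocyte markers summed to 0.644 to 2.87 CPM in WT and 0.145 to 4.08 CPM in DKO, with no call by edgeR or DESeq2 among the 2 tested and 0 at an unadjusted p under 0.05. The 5 mast cell markers summed to 0.229 to 1.79 CPM in WT and 0.0823 to 1.29 CPM in DKO, and the 1 tested (*Cma1*) was called by neither tool and had an unadjusted edgeR p of 0.764. The myoepithelial list, which marks the contractile cells around acini, was lower in DKO for 4 of 4 markers tested, of which edgeR called 1 and DESeq2 called 4. The macrophage list had 0 of 4 called by either tool and 0 at an unadjusted edgeR p under 0.05. No lymphocyte or sublingual gland marker passed the filter on low counts, and the sublingual sum reached 6.21 CPM in DKO_4 and 3.89 CPM in WT_3. Of the parotid list, *Bpifa2* and *Amy1* were at 7431 and 638 CPM in DKO_1, and without that library the *Agt* log2 fold change was 1.27 (edgeR adjusted p = 0.0823).

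Of 19 other genes of the system with a row in the count table, 12 were tested, 9 with a higher and 3 with a lower estimate in DKO. EdgeR's quasi-likelihood test called 0 of the 12, against 0.629% of all genes tested. An unadjusted edgeR p under 0.05 was found for 3 of the 12, against 14.5%. DESeq2 called 1 (*Klk1*), against 4.45% of the genes to which it gave an adjusted p. Their median log2 fold change was 0.13, against 0.01 over all genes tested. *Agtr1b*, *Agtr2* and *Mrgprd*, which encode receptors of angiotensin peptides, and *Ctsg*, which encodes a protease of myeloid cells, had 0 counts in all 9 libraries, where a count of 0 allows up to 3 counts, or 0.0663 to 0.218 CPM by library. *Cpa3*, a mast cell carboxypeptidase, had 0 to 3 counts. *Ren2* was not analysed here.

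*Klk1* encodes tissue kallikrein, which releases kinins and can also act on angiotensinogen. Its levels were 5371, 10173, 5627 and 6615 CPM in WT and 9352, 10899, 11887, 9690 and 10243 CPM in DKO. WT_2 lay among the DKO libraries, and the other 3 WT libraries were lower. The log2 fold change was 0.58 with an SE of 0.23 (adjusted p = 0.256 by edgeR's quasi-likelihood test, 0.0385 by DESeq2), and reads of the near-identical Klk1b genes could have been counted on it or lost from it. *Mme* encodes neprilysin, which cuts angiotensin I to angiotensin 1-7. Its levels were 29.0, 19.2, 24.3 and 14.6 CPM in WT and 14.8, 14.8, 10.9, 20.6 and 13.2 CPM in DKO. The groups overlapped, with WT_1 and WT_3 above all DKO libraries, and the test gave a log2 fold change of -0.55 with an SE of 0.21 (adjusted p = 0.252 by edgeR's quasi-likelihood test).

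**Figure D5:**
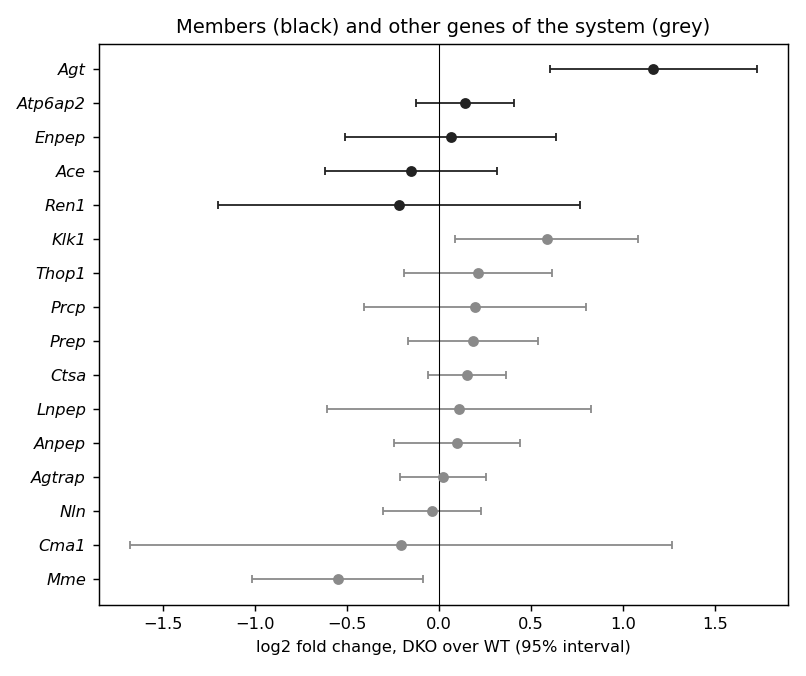
Log2 fold change of DKO over WT with its 95% interval for the 5 members tested (black) and other genes of the system (grey), by edgeR's quasi-likelihood fit over 13842 genes. *Agt* (1.16) has the largest estimate of those shown, and none of these genes passed at an adjusted p under 0.05.

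The genes whose log2(CPM + 0.5) followed each member most closely over the 9 libraries are given as a description, with no test. These points share libraries and the genotype difference, and the genes were picked as the highest of all genes tested. For *Agt* they were *Abhd17a* (Pearson r = 0.986), *Ttc7b* (r = 0.980) and *Gm26772* (r = 0.971). For *Ren1* they were *Dnaja3* (r = 0.944), *Lbr* (r = 0.938) and *Slc35c1* (r = 0.932). For *Ace* they were *Psmd2* (r = 0.964), *Epas1* (r = 0.952) and *Vps33b* (r = 0.950). For *Atp6ap2* they were *H3c15* (r = 0.968), *Lig3* (r = 0.966) and *Lins1* (r = 0.961), and for *Enpep* they were *Esrra* (r = 0.940), *Gm43775* (r = 0.905) and *Taok2* (r = 0.905).

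Among the members themselves, the same description gave the highest r for *Ren1* and *Ace* (0.834 over 9 libraries, 0.826 after the group means were taken out). WT_3 was the highest WT library for both genes. DKO_3 was the highest DKO library for all 6 members, and it also had the lowest TMM factor of the 9 libraries (0.774); the part of this in the correlations was not tested. *Ren1* and *Agt* had an r of 0.0928, and 0.460 after the group means were taken out. *Agt* and *Enpep* had an r of 0.516, and 0.730 after the group means were taken out.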

How the data were processed

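RNA of 9 male SMGs was sequenced by the authors on a HiSeq2500 with unstranded Nextera XT libraries. The submitters' processing notes name STAR 2.5.2a, DESeq2, edgeR, limma and the builds GRCm38, mm10 and GRCh38. The counting tool, its annotation and its filter are not given in the sources used here. The authors deposited raw read counts per gene (48733 rows), the same counts for 17562 filtered rows, and a table of signal values, which as deposited by the authors are these counts divided by 1 TMM-scaled library size per library in CPM units. All 158058 values of that table gave back the filtered counts to within 0.01, and the CPM used here for the members were 0.997 to 1.00 times its values.

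The raw counts were analysed here in R 4.3.3 with edgeR 4.0.16: filterByExpr (minimum count 10, minimum total 15), TMM factors and a quasi-likelihood fit (legacy setting) on genotype alone, with Benjamini-Hochberg adjustment over the 13842 genes tested and a threshold of 0.05. The SE was taken as the size of the log2 fold change over the root of its F statistic. DESeq2 1.42.0 and limma 3.58.1 (voom) were alternatives, with other scalings, no filter, each library left out, and a block for the replicate number. Summaries were written in Python 3.11.15 (numpy 2.4.6, scipy 1.17.1, pandas 2.3.3) and plots in matplotlib 3.10.9. Exact two-sided permutation tests ran over all 126 splits into 4 and 5, on log2(CPM + 0.5). The edgeR test and the permutation test were tested on simulated data. P-values measure the spread between mice. Rows that name no gene held 3.87e-06% of the reads.

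The fits that leave out 1 library were repeated with DESeq2 after seeing the data. The members, marker lists, the list of other genes of the system and the tests were chosen with earlier results of these data known. The genes named are the 6 members, the deleted genes, the other genes of the system that passed a test, were at or under 3 counts in all libraries or had 1 of the 3 largest log2 fold changes, the listed markers, and for each member tested the 3 genes most like it. Gene models are GENCODE M21 on GRCm38 and promoters are RefSeq on GRCm38.p6. The 95% intervals come from the edgeR fit. A floor of 3 counts covers counting error only, since reads carry no molecular identifiers. Of the listed genes, some are not reported here. Libraries of female mice were not analysed here.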

Additional observations from a re-analysis of the deposited data

Results flagged for a closer look

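Among the values of the 6 members and the 5 comparisons with marker lists, each looked at in the WT and the DKO libraries (22 groups of 4 or 5), 1 library lay far from the others of its group. In DKO_1, *Enpep* relative to the mural markers was -1.16, against -0.74, -0.73, -0.71 and -0.62 in the other DKO libraries, and the gap took up 0.783 of the group's range, above Dixon's critical value for a group of 5. Chance flags about 1 in 20 groups. DKO_1 is also the library with the most parotid gland marker signal (8070 CPM), and the part of this in the *Enpep* value was not tested. Without DKO_1 the difference between the groups was 0.06.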

How the results depend on the processing

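The count of genes with an adjusted p under 0.05 was 87, and 87 and 89 with RLE size factors and with normalization without the 20 most abundant genes. It was 357 with total counts without TMM factors, 616 with DESeq2, 148 with limma-voom, 45 with the robust quasi-likelihood fit, 347 without the filter on low counts and 0 with the replicate block, and 0 to 441 with 1 library left out. It was 306 without WT_2, 441 without DKO_4, 2 without DKO_3, 1 without DKO_1 and 0 without WT_1, WT_3, WT_4, DKO_2 or DKO_5. The cause was not tested. The number of members called was 0, and it was 1 (*Agt*) with DESeq2, without the filter and without DKO_4, and 0 to 1 over the fits that left out 1 library by edgeR or DESeq2.

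*Agt* was higher in DKO in all 27 alternatives, with a log2 fold change of 0.83 to 1.42 and an adjusted p of 2.00e-05 to 0.221. It passed with DESeq2 (1.17), without the filter (1.15, adjusted p = 0.0130), without DKO_4, and in 9 of 9 DESeq2 fits that left out 1 library (adjusted p at most 0.0133), at 1.03, 1.16, 1.10 and 1.42 without WT 1 to 4 and 1.27, 1.20, 1.02, 1.26 and 1.08 without DKO 1 to 5. EdgeR gave 1.01 to 1.41 with 1 library left out. By the same changes *Ren1* ranged from -0.75 to 0.11 and was 0.11 without WT_3, *Ace* ranged from -0.25 to 0.067, the latter without WT_3, and *Enpep* ranged from -0.11 to 0.25, at -0.11 without WT_3 and -0.003 without DKO_3. With total counts without TMM factors *Atp6ap2* was -0.16 and *Enpep* -0.23. *Enpep* relative to the mural list reversed to 0.0085 with the summed list, and ranged from -0.19 to 0.13 with 1 library left out, at 0.13 without WT_4 and 0.06 without DKO_1. None of these was past the threshold. *Agtr1a* ranged from -0.19 to 0.12 and had an adjusted p of 0.945 when tested without the filter. The other relative comparisons and the order of the members kept direction and side of the threshold in their alternatives.

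Whether equal replicate numbers mark paired samples could not be told from these values. After the group means were taken out, libraries with the same number correlated at 0.0118 to 0.347, over 0.1 in 3 of 4 pairs. Of the 4 WT libraries, 2 correlated best with the DKO library of their own number. The sample titles hold a further number per mouse, whose meaning is not stated. By that number WT_3 lay nearest to DKO_4, and WT_4 nearest to DKO_3. A block by replicate number, or a within-pair difference, may therefore join unrelated mice. The main fit did not use the replicate numbers. With the replicate block *Agt* had a log2 fold change of 1.07 (adjusted p = 0.112), and relative to the acinar list a within-pair difference of 0.45, where 4 pairs cannot give an exact p under 0.125. Depth limits *Agtr1a*, *Enpep* and *Ace*, whose counts were at most 173 per library.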
